A study of Mus musculus with 2 samples.

Results

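The SOX neural progenitor factors were 6 genes, Sox1, Sox2, Sox3, Sox4, Sox11 and Sox21, chosen by symbol among the 27998 genes listed alike for both libraries and not for any measured value. They were followed in eye organoids, self-organising aggregates that form retinal tissue in culture, grown from mouse embryonic stem cells (ESCs). Single-cell RNA was read with the 10x Genomics 3' v2 kit in 1 library of culture day 6 and 1 library of culture day 4, each a pool of 3 biological replicates. Cells of both days were heterozygous for the Rax-GFP knockin, with GFP placed at Rax, a gene needed for the eye field, and no organoids without the knockin or with another treatment were measured. With 1 library a day and cells that are not replicates, no test between days was possible, a pool hides the spread of its replicates, and day and library cannot be told apart.

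SOX proteins are transcription factors that bind DNA through an HMG box. The SoxB1 genes Sox1, Sox2 and Sox3 overlap in function and hold neural progenitors in an undifferentiated state, and Sox2 also works beside Pou5f1 in pluripotent cells before any neural tissue exists. Sox21, of the SoxB2 class, binds similar DNA sites and mostly opposes SoxB1 activity. The SoxC genes Sox4 and Sox11 act in progenitors leaving the SoxB1 state, in young neurons and in neural crest, the migratory population that Sox10 marks, and both are needed for a normal mouse eye.

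Each of these genes has 1 exon, so the whole transcript lies in 1 block of the genome (GENCODE annotation, build GRCm38, called mm10 in the deposited processing notes). Sox1 spans chr8:12395295-12400126 on the plus strand, Sox2 chr3:34650405-34652461 on the plus strand and Sox3 chrX:60891366-60893430 on the minus strand. Sox21 spans chr14:118233232-118237030, Sox4 chr13:28948919-28953713 and Sox11 chr12:27334264-27342574, all on the minus strand. A stretch of 60 coding bases near the start of the HMG box, from the annotated transcripts, is shown because the box defines the family and its differing letters can be read class by class. Capitals mark the 39 bases that all 6 genes share, 5′ to 3′ on the coding strand.
Sox1: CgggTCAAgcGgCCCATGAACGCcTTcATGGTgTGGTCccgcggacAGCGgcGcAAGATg
Sox2: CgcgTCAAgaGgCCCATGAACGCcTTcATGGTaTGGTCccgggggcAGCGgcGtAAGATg
Sox3: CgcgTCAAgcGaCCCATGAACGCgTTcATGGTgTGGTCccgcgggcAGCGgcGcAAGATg
Sox21: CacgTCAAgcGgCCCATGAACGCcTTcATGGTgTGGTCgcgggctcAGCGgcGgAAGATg
Sox4: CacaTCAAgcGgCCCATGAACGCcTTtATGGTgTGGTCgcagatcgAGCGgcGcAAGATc
Sox11: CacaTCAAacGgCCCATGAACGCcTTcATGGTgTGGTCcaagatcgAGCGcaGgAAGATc

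Over the 237 coding bases of the box, Sox1, Sox2 and Sox3 were 87.8% to 89.5% identical to each other, and Sox4 and Sox11 were 89.5% identical. Sox21 was as close to the SoxB1 genes, at 86.9% to 88.2%, and reached 72.6% with Sox4 and 73.0% with Sox11. Identity between SoxB1 and SoxC boxes was 67.1% to 69.6%. The 3' kit reads the transcript's end and not this box. Gm26735, annotated antisense to Sox4, was counted on its own, with 1.62 CPM in the day 6 library, against 1.10 CPM in the day 4 one. Sox2 and Sox1 overlap the same-strand transcripts Sox2ot and Sox1ot, which were not analysed here.

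The study's filter kept 6641 of 7446 barcodes on day 6 and 8147 of 9114 on day 4, with a median of 12514 and 11216 UMIs (unique molecular identifiers, each 1 captured RNA molecule) per cell. Levels are CPM, the UMIs of a gene per 1000000 UMIs summed over the cells named, with exact Poisson 95% intervals that cover counting error only. UMIs were not divided by transcript length, so each gene is compared with itself across groups, and a summed level does not separate more cells from more RNA per cell. A gene was called higher or lower where its ratio was at least 1.5-fold and the exact 95% interval of the ratio left out 1. Retina progenitors is the label of both libraries. Their genes Pax6 and Rax stood at 246.5 and 94.3 CPM in the day 6 library but at 4.61 and 3.45 CPM in the day 4 library. The kept cells of the libraries shared 78 barcode sequences.

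Sox21, Sox3, Sox11 and Sox1 were higher on day 6 than on day 4, Sox2 was lower, and Sox4 stayed inside the limit. These 4 of 6 genes compare with 13.3% of 6699 genes (those at a mean of 10 CPM or more) that were higher, and the 1 lower gene with 6.28%. The median gene shifted by 0.14 on the log2 scale. The 6 genes were picked as neural factors, so a high share among them says nothing of the gene list at large.

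Sox2, the SoxB1 gene shared by pluripotent and neural cells, stood at 67.6 CPM (95% interval 65.8 to 69.3) in day 6 cells, against 110.8 CPM (109 to 113) in day 4 cells. Its ratio was 0.610 (0.591 to 0.630). Cells with a Sox2 UMI made up 50.6% on day 6 and 64.8% on day 4, and the most in any cell was 11 UMIs on either day. Sox2 therefore remained the most counted SoxB1 gene in both libraries while its level was lower in the older one.

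Sox3, which works in neural progenitors and is X-linked, reached 20.6 CPM in day 6 cells, against 7.27 CPM in day 4 cells (ratio 2.83, interval 2.60 to 3.09). Sox1, the SoxB1 gene whose onset follows neural commitment, had 7.63 CPM in day 6 cells, against 4.46 CPM in day 4 cells, which made a ratio of 1.71 (1.51 to 1.93). Sox1 was the sparsest SoxB1 gene and lay below the 10 CPM mean in each comparison made here, so it is counted among the 6 genes but not among the genes of the shares set beside them. Of the 5 members in those shares between the days, 3 were higher and 1 lower. It gave a UMI in 8.96% of cells on day 6 and in 4.91% on day 4.

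Sox21, the SoxB2 gene, reached 22.5 CPM in day 6 cells, while day 4 cells had 2.12 CPM. The ratio of 10.6 (9.19 to 12.3) was the largest of the 6, and 99.6% of the genes compared had a lower ratio. Sox11, the most counted of the 6 genes, had 280.2 CPM in day 6 cells and 134.8 CPM in day 4 cells, giving a ratio of 2.08 (2.04 to 2.12). Its SoxC partner Sox4 had 101 and 77.0 CPM on days 6 and 4, and the ratio of 1.31 (1.27 to 1.35) did not reach 1.5-fold. The SoxC genes thus differed from each other in how far the days were apart.

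**Figure D1:**
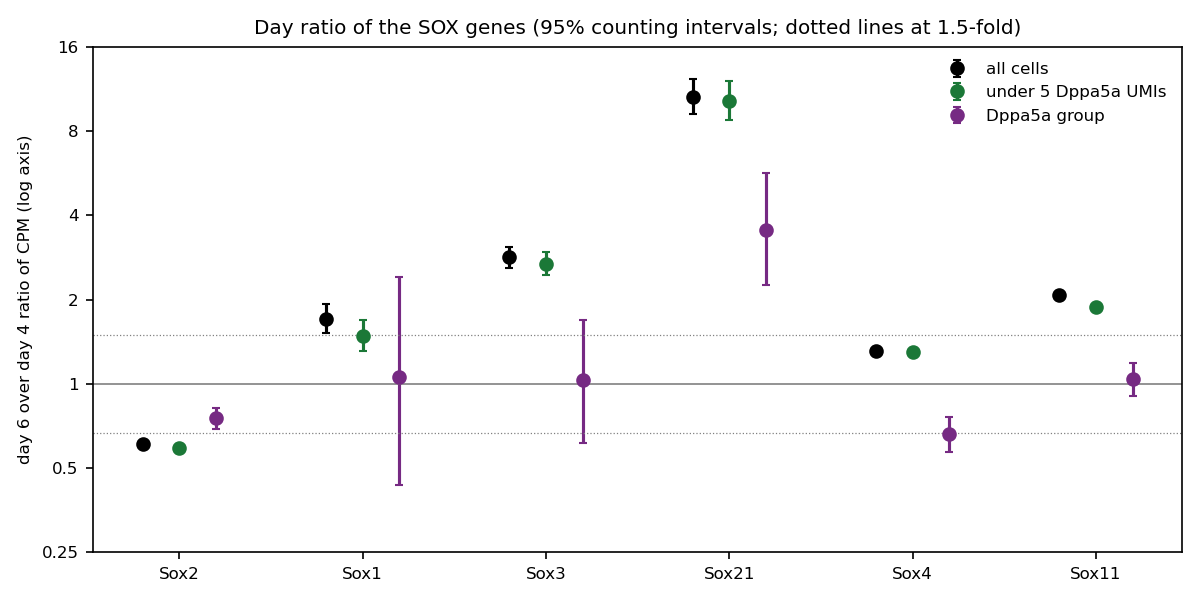
Ratio of CPM on day 6 over day 4 (log axis) for the 6 SOX genes, over all kept cells, over cells with under 5 Dppa5a UMIs and over the Dppa5a group, with 95% counting intervals and dotted lines at 1.5-fold. Sox2 lies below 1 in every cell set, Sox21 lies highest, and the Sox3 and Sox11 ratios of 2.83 and 2.08 over all cells stand near 1 in the Dppa5a group.

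Cells were then grouped by raw UMIs of 5 marker genes that are no members: Dppa5a, found in naive pluripotent cells, Fgf5, of the formative epiblast that follows, Six6, of the optic vesicle, Wnt8b, of the dorsal forebrain, and Sox10, of neural crest. A cell joined the Dppa5a group at 5 or more UMIs and the other groups at 2 or more, a cell of more than 1 group was called mixed, and a cell of none was called unmarked. Day 6 held 356 Wnt8b, 1973 Six6, 3582 unmarked and 575 Dppa5a cells, and day 4 held 2940 Fgf5, 3002 unmarked and 1360 Dppa5a cells. Mixed cells numbered 101 on day 6 and 824 on day 4. Median depth was 14644 UMIs in Wnt8b, 12929 in Six6, 11758.5 in unmarked and 13547 in Dppa5a cells of day 6, and 12509 in Fgf5, 9796 in unmarked and 10380 in Dppa5a cells of day 4. Cells with under 0.5% mitochondrial counts were 9.09% of unmarked cells of day 4 and at most 4.75% of the other 6 of these groups, and leaving them out changed no call of the 6 genes. Groups under 50 cells were 29 Fgf5 and 25 Sox10 cells on day 6 and 20 Six6 cells, 1 Wnt8b cell and no Sox10 cell on day 4.

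The groups were checked by the markers of each list other than the gene that formed the group. The 5 other optic vesicle markers summed to 881 CPM in the Six6 group, to 471 CPM in day 6 unmarked cells and to 42.0 CPM in the day 6 Dppa5a group. In the Wnt8b group they summed to 278 CPM. The 5 other dorsal forebrain markers summed to 195 CPM in the Wnt8b group, against 4.74 CPM in the Six6 group. The Wnt8b group thus held more UMIs of these optic vesicle markers than of the dorsal forebrain ones. The 7 other naive markers summed to 680 CPM in the day 6 Dppa5a group and to 702 CPM in that of day 4, against 5.29 CPM in the Six6 group and 25.7 CPM in the Fgf5 group. The 5 other formative epiblast markers set the day 4 groups less far apart. They summed to 1505 CPM in the Fgf5 group, 1186 CPM in unmarked cells and 1044 CPM in the Dppa5a group of that day. The Dppa5a groups also held markers of endoderm, a cell type outside the neural lineage, which summed to 234 CPM on day 6 and 71.9 CPM on day 4, against 5.58 CPM in the Six6 group and 5.80 CPM in the Fgf5 group.

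**Figure D2:**
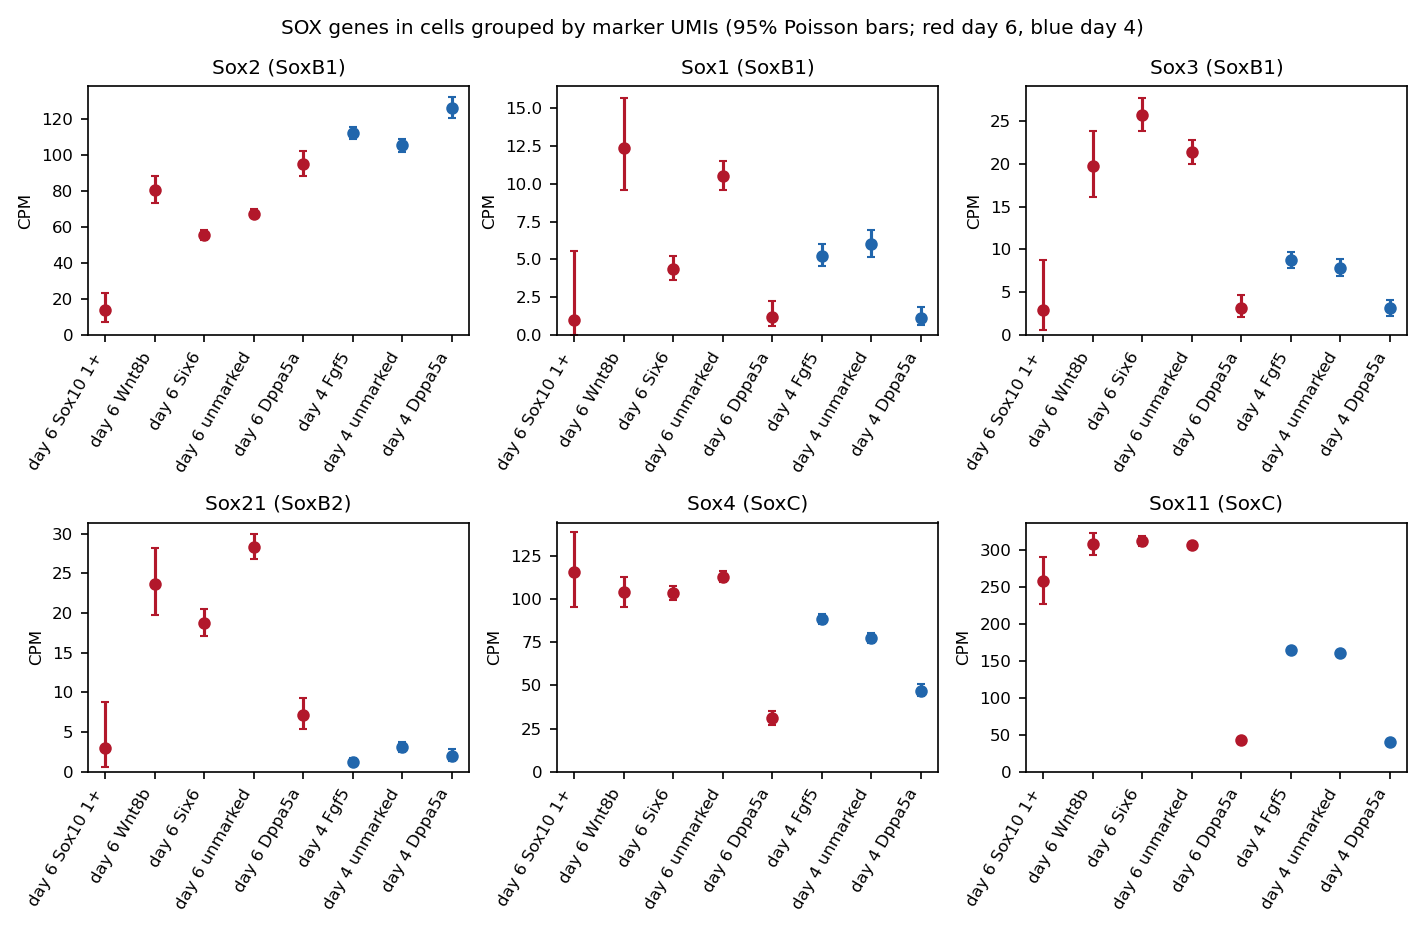
CPM of each SOX gene (points) with exact Poisson 95% intervals in the marker groups, day 6 in red and day 4 in blue; Sox10 1+ is the day 6 group with 1 or more Sox10 UMIs. Sox2 has its lowest level, 14.0 CPM, in Sox10 cells and its highest, 126 CPM, in day 4 Dppa5a cells, whereas Sox11 runs at 42.4 and 40.9 CPM in the Dppa5a groups and at 306 to 312 CPM in the Wnt8b, Six6 and unmarked groups of day 6.

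In pluripotent-marked cells Sox2 was the most counted of these 6 genes. In the Dppa5a group of day 6 Sox2 had 95.2 CPM, against 126 CPM in that of day 4, while Sox1 had 1.24 and 1.17 CPM and Sox3 had 3.22 and 3.13 CPM in the same groups. Sox11 had 42.4 CPM in the day 6 group, against 40.9 CPM in the day 4 group. Sox4 had 31.1 CPM in the day 6 group, against 47.1 CPM in the day 4 group.

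Droplet libraries carry free RNA, so the low values were set beside cells with 5 or more UMIs of 6 endoderm markers, which should lack SoxB1 RNA. Of the 158 such cells of day 6, 88 were in the Dppa5a group itself, so the reference was narrowed, after the data were seen, to the 65 with under 5 Dppa5a UMIs (median 9674 UMIs), and the Dppa5a group to its 487 other cells (median 13700 UMIs). With every cell thinned to 5000 UMIs, Sox2 was found in 37.6% (33.3% to 42.0%) of these Dppa5a cells, against 1.54% (0.0389% to 8.28%) of the endoderm-marked cells, or 65.1% against 7.69% before thinning. Sox1 was found in 0.616% and 0%, Sox3 in 2.05% and 1.54%, Sox21 in 3.70% and 4.62%, and Sox11 in 15.0% (11.9% to 18.5%) and 6.15% (1.70% to 15.0%). For these 4 genes the intervals overlapped, so at this number of cells their shares in the Dppa5a group were not told apart from those of the reference. The reference was chosen to lack SoxB1 RNA and was not shown to lack Sox11 or Sox21 RNA. Its 65 cells still held 297 CPM of the 7 naive markers other than Dppa5a. The whole Dppa5a group of day 6 held 680 CPM of these and the Six6 group 5.29 CPM. Of all 158 endoderm-marked cells 7.59% held 3 or more Sox11 UMIs, with up to 14 in a cell. In the whole Dppa5a group of day 6 these values were 6.26% and 15. Among the 6 genes only the Sox2 share lay above that of the endoderm-marked cells with no overlap, and the Sox4 share of 9.65% (7.18% to 12.6%) lay below their 24.6% (14.8% to 36.9%). Only 8 endoderm-marked cells of day 4 had under 5 Dppa5a UMIs, too few for such a reference.

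Between the days, the Dppa5a group gave 1 gene higher and 1 gene lower of 6, against 9.45% and 2.45% of 6625 genes. Sox1, Sox3 and Sox21 are not among those genes, and of the other 3 members 1 was lower. Sox2 had a ratio of 0.754 (0.693 to 0.820), Sox1 of 1.06, Sox3 of 1.03 and Sox11 of 1.04, all inside the limit. Sox4 was lower, at 0.661 (0.570 to 0.764), and the value was 0.577 without the cells that carried 5 or more endoderm UMIs. It was no longer called over all deposited barcodes (0.699) or without the 5% of cells with the most UMIs (0.688). Sox21 was higher at 3.56 (2.26 to 5.69), from 58 and 31 UMIs, and its 7.19 CPM on day 6 lay within the interval of the 65 endoderm-marked cells of the same library, at 8.30 CPM (3.05 to 18.1), so no expression was read from it.

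Among cells with under 5 Dppa5a UMIs the day ratios were close to those of the whole libraries, with 3 genes higher and 1 lower against 13.1% and 6.29% of 6663 genes. Sox21 had a ratio of 10.3, Sox3 of 2.69, Sox11 of 1.89, Sox4 of 1.30 and Sox2 of 0.588. Sox1, at 1.49 (1.31 to 1.69), lay just inside the limit. Unmarked cells gave 4 higher and 1 lower, against 12.5% and 5.31% of 6633 genes, with Sox1 at 1.75, Sox2 at 0.641 and Sox4 at 1.46. The lower Sox2 level on day 6 was thus present in cells with few or no Dppa5a UMIs as well.

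Cells marked by Fgf5 on day 4 had Sox2 with SoxC genes beside it. Compared with the Dppa5a group of the same day, 4 of 6 genes were higher and none lower, while 16.6% and 8.75% of 6481 genes that reached the 10 CPM mean were called. Of the members only Sox2, Sox4 and Sox11 reached that mean, and 2 of these 3 were higher. Sox2 stayed inside the limit, with 112 CPM in Fgf5 cells and 126 CPM in Dppa5a cells, a ratio of 0.887 (0.841 to 0.936). Sox11 had 164 CPM in Fgf5 cells and 40.9 CPM in Dppa5a cells, a ratio of 4.01 (3.70 to 4.36). Sox4 followed with 88.4 CPM in Fgf5 cells and 47.1 CPM in Dppa5a cells, a ratio of 1.88. Unmarked cells of day 4 were close to the Fgf5 group, with 105 CPM of Sox2, 161 CPM of Sox11 and 77.5 CPM of Sox4.

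Sox1 and Sox3 were also higher in Fgf5 cells, both at a mean below 10 CPM. Sox1 had 5.24 CPM in Fgf5 cells and 1.17 CPM in Dppa5a cells, a ratio of 4.47 (2.76 to 7.69). Sox3 had 8.74 CPM in Fgf5 cells and 3.13 CPM in Dppa5a cells, a ratio of 2.79 (2.06 to 3.86). After thinning Sox3 was found in 3.85% (3.18% to 4.62%) of Fgf5 cells and Sox1 in 2.86% (2.28% to 3.53%). In Dppa5a cells of the same library the shares were 1.42% (0.858% to 2.21%) and 0.299% (0.0816% to 0.765%). All 45 endoderm-marked cells of day 4 had 4.44% (0.543% to 15.1%) and 0% (up to 7.87%). These few cells, 33 of them in the Dppa5a group, could not tell the UMIs of either gene from free RNA. Sox21 had 50 UMIs in the 2940 Fgf5 cells and 31 in the 1360 Dppa5a cells, or 1.28 and 2.02 CPM, too few to pass the limit. Where mixed cells were counted in each of their groups, the Sox4 ratio was 1.43 and no longer called.

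On day 6 optic vesicle-marked cells were set beside pluripotent-marked cells. Compared with the Dppa5a group, the Six6 group had 5 of 6 genes higher and 1 lower, against 28.3% and 14.6% of 6910 genes, while the median of all genes shifted by 0.23 on the log2 scale. Sox2 was the gene that was lower, with 55.8 CPM (53.0 to 58.6) in Six6 cells and 95.2 CPM (88.6 to 102) in Dppa5a cells, a ratio of 0.586 (0.537 to 0.640). Without the endoderm-marked cells in the Dppa5a group the ratio was 0.519.

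Sox3 had 25.7 CPM in Six6 cells and 3.22 CPM in Dppa5a cells, a ratio of 7.97 (5.40 to 12.3), the largest of the 6. Sox11 had 312 CPM in Six6 cells and 42.4 CPM in Dppa5a cells, a ratio of 7.36 (6.60 to 8.22). Sox4 had 103 CPM in Six6 cells and 31.1 CPM in Dppa5a cells, a ratio of 3.33. The Sox1 ratio was 3.52 and the Sox21 ratio 2.61, so that the 5 partners stood opposite to Sox2. For the 4 of these 5 whose thinned shares overlapped those of endoderm-marked cells, the Dppa5a side of the ratio was not told apart from that reference. On the Six6 side the thinned shares of Sox1 and Sox21 also overlapped the reference, at 1.93% (1.37% to 2.63%) and 7.75% (6.61% to 9.02%). The reference had 0% (up to 5.52%) and 4.62% (0.962% to 12.9%). Of the 4 genes, Sox3, at 10.4% (9.13% to 11.9%), and Sox11, at 77.2% (75.3% to 79.0%), lay above it with no overlap.

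**Figure D3:**
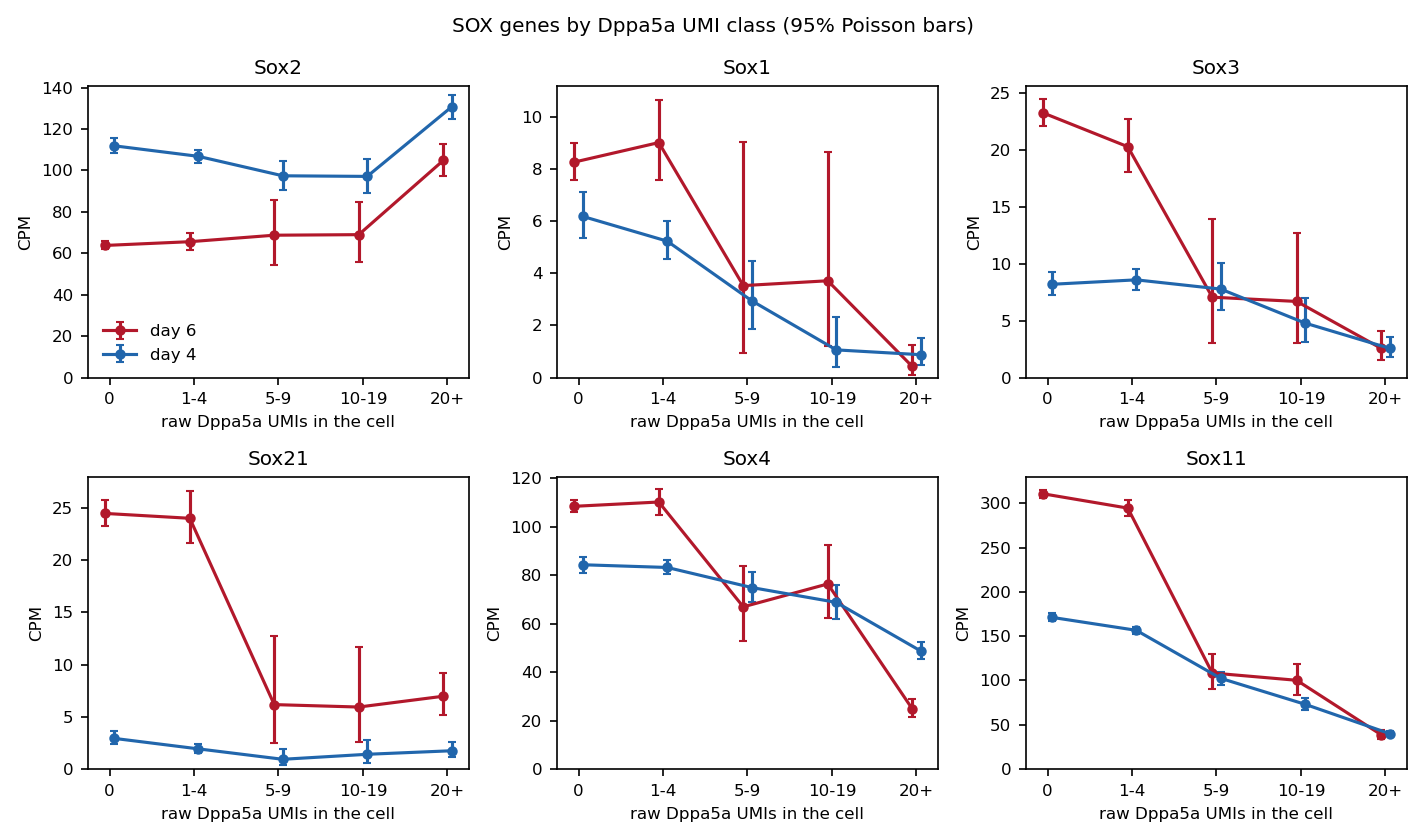
CPM of each SOX gene with exact Poisson 95% intervals in cells with 0, 1 to 4, 5 to 9, 10 to 19 and 20 or more raw Dppa5a UMIs, day 6 in red and day 4 in blue. Sox11 is highest at 0 Dppa5a UMIs, at 310.6 CPM in day 6 cells and 171 CPM in day 4 cells, and has 38.7 and 40.0 CPM at 20 or more; Sox2 is highest in the class of 20 or more.

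The same gap could be followed over Dppa5a UMI classes rather than a threshold. On day 6 Sox2 had 63.8, 65.6, 68.8, 69.0 and 104.8 CPM in cells with 0, 1 to 4, 5 to 9, 10 to 19 and 20 or more Dppa5a UMIs. On day 4 it had 111.9, 106.8, 97.4, 97.1 and 130.7 CPM in these classes. Sox2 thus varied little below 20 Dppa5a UMIs and was highest above it on both days. Sox11 had 310.6, 294.5, 108, 100.2 and 38.7 CPM in the same order on day 6, and 171, 157, 102, 73.1 and 40.0 CPM on day 4. For Sox11 the intervals of the days overlapped at 5 to 9 and at 20 or more Dppa5a UMIs, and day 6 lay above day 4 in the other classes.

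Between the Wnt8b and Six6 groups of day 6 Sox1 was the member that differed past the limit. The Wnt8b group had 1 of 6 genes higher than the Six6 group and none lower, while 2.64% and 2.15% of 6754 genes that reached the 10 CPM mean were called. Sox1 lay under that mean and is not among them, and none of the 5 members that reached it was called. Sox1 stood with 12.3 CPM (9.55 to 15.7) in Wnt8b cells and 4.37 CPM (3.62 to 5.23) in Six6 cells, a ratio of 2.82 (2.06 to 3.84). After thinning it was found in 5.90% (3.69% to 8.88%) of Wnt8b cells and in 1.93% (1.37% to 2.63%) of Six6 cells. Both shares overlapped the 0% (up to 5.52%) of the 65 endoderm-marked cells, so Sox1 was not told apart from that reference in either group. Sox2 had 80.6 CPM in Wnt8b cells and 55.8 CPM in Six6 cells, and its ratio of 1.44 (1.30 to 1.61) did not reach the limit. Sox3 leaned the other way, with 19.7 CPM in Wnt8b cells and 25.7 CPM in Six6 cells (ratio 0.766), also inside the limit. Sox4 and Sox11 had ratios of 1.004 (0.916 to 1.10) and 0.986 (0.935 to 1.04).

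A comparison of Six6 cells with unmarked cells of day 6 was added after the data were seen. It gave 2 of 6 genes lower and none higher, against 1.67% and 0.947% of 6760 genes, and 1 of the 5 members among those genes was lower. Sox1 had 4.37 CPM in Six6 cells and 10.5 CPM in unmarked cells, a ratio of 0.415 (0.337 to 0.509). Sox21 had 18.8 CPM in Six6 cells and 28.3 CPM in unmarked cells, and its ratio of 0.662 (0.596 to 0.734) was just past the limit. That call was lost under 4 alternatives, at 0.668 to 0.716. The unmarked cells were a mixture, with the other dorsal forebrain markers summing to 42.4 CPM and the other neural crest markers to 20.8 CPM, against 4.74 and 1.80 CPM in the Six6 group.

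By the number of Six6 UMIs on day 6, Sox1 had 9.51 CPM in cells with 0, 7.34 CPM with 1, 4.96 CPM with 2, 3.67 CPM with 3 and 4.35 CPM with 4 or more. Sox2 had 74.5, 63.5, 53.1, 56.8 and 58.1 CPM in these classes. Sox3 was lowest in cells with no Six6 UMI, at 16.5 CPM, and lay between 23.6 and 27.3 CPM in the others. Sox1 and Sox3, both SoxB1 genes, thus lay on opposite sides across Six6 classes. By the number of Wnt8b UMIs, Sox1 had 6.83 CPM with 0, 13.6 CPM with 1, 12.9 CPM with 2, 14.7 CPM with 3 and 6.88 CPM (3.30 to 12.6) with 4 or more, the last from 10 UMIs in 88 cells.

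**Figure D4:**
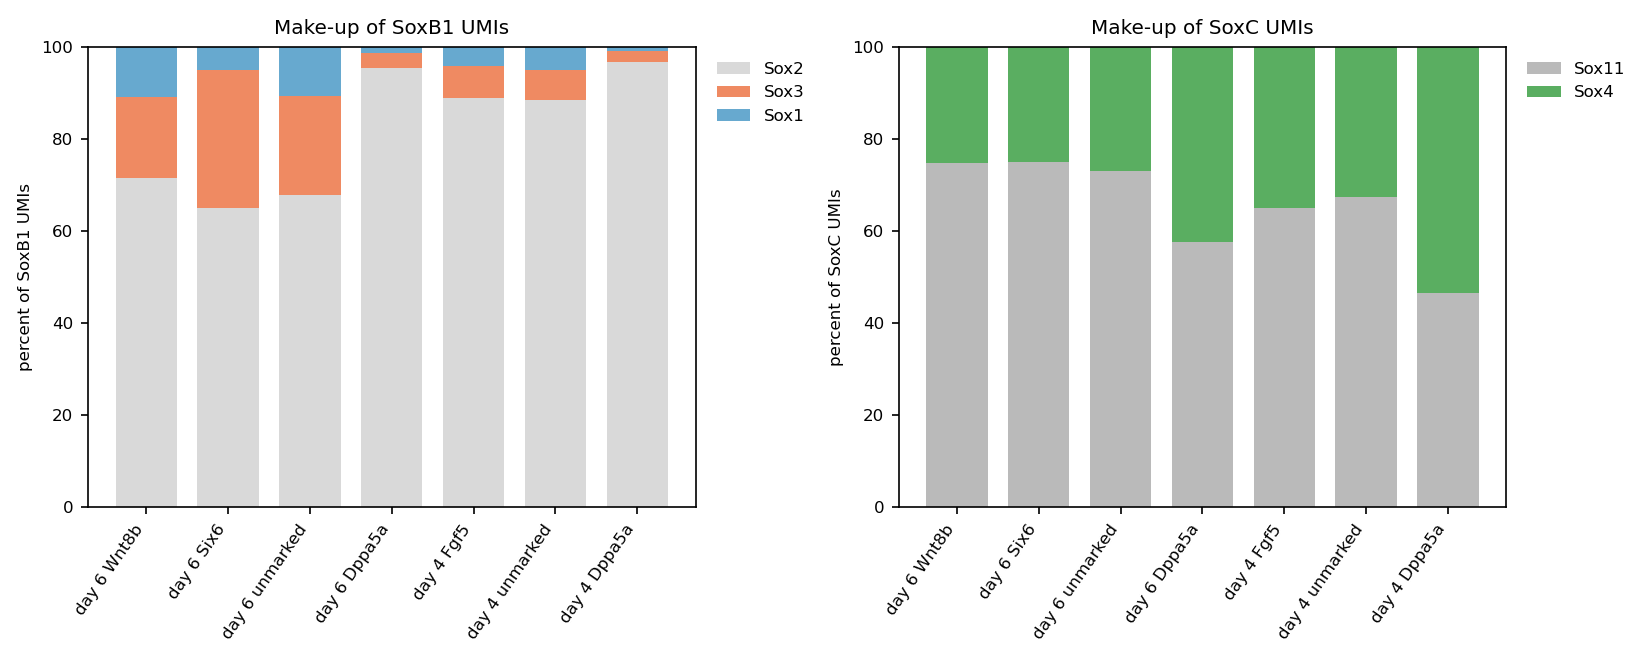
Percent of the summed SoxB1 UMIs from Sox2, Sox3 and Sox1 (left) and of the summed SoxC UMIs from Sox11 and Sox4 (right) in the marker groups of day 6 and day 4. Sox2 makes up 96.7% of SoxB1 UMIs in day 4 Dppa5a cells and 65.0% in day 6 Six6 cells, where Sox3 makes up 29.9%.

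The make-up of each class shows which partner stood beside Sox2. Of the SoxB1 UMIs, Sox2 took 65.0% (63.0% to 66.9%, exact Clopper-Pearson) in Six6 cells, 71.6% in Wnt8b cells and 67.9% in unmarked cells of day 6, against 95.5% in Dppa5a cells of that day. On day 4 it took 88.9% in Fgf5 cells, 88.4% in unmarked cells and 96.7% in Dppa5a cells. Sox3 filled 29.9% (28.1% to 31.8%) in Six6 cells but 17.5% (14.6% to 20.7%) in Wnt8b cells. Sox1 filled 5.09% (4.23% to 6.06%) in Six6 cells and 10.9% (8.59% to 13.7%) in Wnt8b cells. In neither group was Sox1 told apart from the endoderm-marked reference after thinning. Unmarked cells of day 6 had 21.5% of Sox3 and 10.6% (9.70% to 11.5%) of Sox1, a Sox1 share like that of Wnt8b cells. The Sox3 share was thus higher and the Sox1 share lower in Six6 cells than in either of these groups. Sums of SoxB1 UMIs ran from 85.8 CPM in Six6 cells to 131 CPM in day 4 Dppa5a cells.

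Sox11 outweighed Sox4 in all marker groups named here but the Dppa5a group of day 4. Sox4 was 24.9% of SoxC UMIs in Six6 cells, 25.3% in Wnt8b cells and 27.0% in unmarked cells of day 6. It was 42.3% (38.3% to 46.4%) in Dppa5a cells of day 6. On day 4 Sox4 was 35.0% in Fgf5 cells, 32.5% in unmarked cells and 53.5% (50.8% to 56.2%) in Dppa5a cells, where Sox4 exceeded Sox11, as it did in the 158 endoderm-marked cells of day 6 with 55.8% (49.0% to 62.3%). The SoxC sum stood at 411, 415 and 419 CPM in Wnt8b, Six6 and unmarked cells of day 6, against 73.5 CPM in Dppa5a cells.

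Sox10-marked cells had SoxC without most of the SoxB genes. Because only 25 cells of day 6 held 2 or more Sox10 UMIs, the group was widened after the data were seen to the 63 cells with 1 or more Sox10 UMIs that belonged to no other group. The 6 crest markers other than Sox10 summed to 326 CPM there, with Twist1 at 54.8 CPM and Foxd3 at 13.0 CPM, against 1.80 CPM for these 6 in the Six6 group. Compared with Six6 cells, 3 of 6 genes were lower and none higher, against 9.27% and 6.89% of 6679 genes.

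Sox2 had 14 UMIs in these cells, or 14.0 CPM (7.63 to 23.4), against 55.8 CPM in Six6 cells, a ratio of 0.2503 (0.137 to 0.421). Sox3 and Sox21 had 3 UMIs each, with ratios of 0.116 (0.0239 to 0.342) and 0.159 (0.0328 to 0.469), and Sox1 had 1 UMI. Sox4 had 116 CPM in Sox10 cells and 103 CPM in Six6 cells, a ratio of 1.12 (0.920 to 1.35), and Sox11 had 257 and 312 CPM, a ratio of 0.825 (0.726 to 0.934). After thinning, Sox2 was found in 7.94% (2.63% to 17.6%) of Sox10 cells (median 15768 UMIs) and in 1.54% (0.0389% to 8.28%) of the 65 endoderm-marked cells, which overlap, so no expression was read from it.

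A second way of finding crest cells, by 5 or more summed UMIs of the 7 crest markers, gave 103 cells, with 3 of 6 genes lower against 9.45% and none higher against 7.42% of 6701 genes. There Sox2 had a ratio of 0.350 to Six6 cells, Sox3 of 0.207 and Sox21, from 3 UMIs, of 0.0946 (0.0195 to 0.278), while Sox4 was at 1.14 and Sox11 at 0.957. In the 25 cells with 2 or more Sox10 UMIs, Sox2 had 2 UMIs, Sox1 and Sox21 had 0, which at a limit of 3 counts allows up to 6.84 CPM, and Sox11 still had 278 CPM. In crest-marked cells Sox4 and Sox11 thus lay inside the 1.5-fold limit against optic vesicle-marked cells, while Sox2, Sox3 and Sox21 were lower. The interval of the Sox11 ratio left out 1 in the 63 Sox10 cells (0.726 to 0.934) but not in the 103 cells (0.873 to 1.05).

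Set across days, the Six6 group of day 6 and the Fgf5 group of day 4 gave 3 genes higher and 1 lower, against 16.6% and 8.06% of 6651 genes. Sox2 had 55.8 CPM in Six6 cells and 112 CPM in Fgf5 cells, a ratio of 0.498 (0.470 to 0.528). Sox21 had 18.8 CPM in Six6 cells and 1.28 CPM in Fgf5 cells, a ratio of 14.7 (10.97 to 20.05), Sox3 a ratio of 2.94 and Sox11 of 1.90. Sox1, at 0.834, and Sox4, at 1.17, lay inside the limit.

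**Figure D5:**
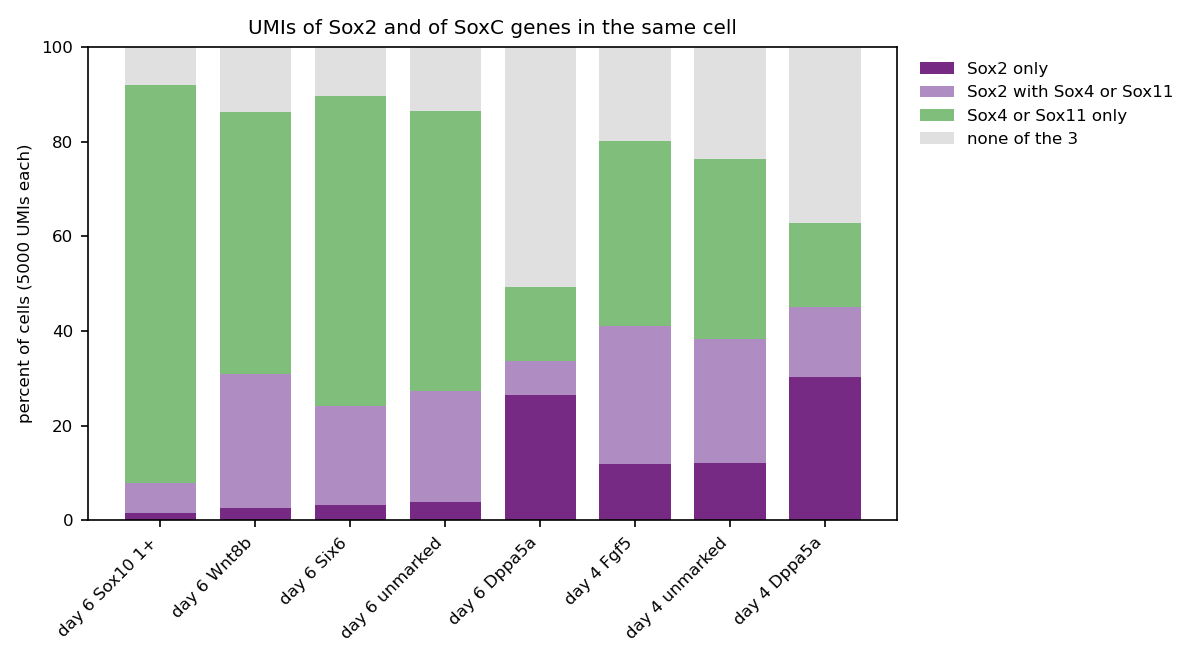
Percent of cells, each thinned to 5000 UMIs, with a UMI of Sox2 only, of Sox2 with Sox4 or Sox11, of Sox4 or Sox11 only, or of none of the 3, by marker group. Cells with Sox2 only make up 26.4% of day 6 Dppa5a cells and 3.35% of day 6 Six6 cells.

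Single cells were classed by whether they held a UMI of Sox2 and of a SoxC gene. All cells were thinned to 5000 UMIs, which left out 182 cells of day 4 and none of day 6. Cells with Sox2 and no SoxC UMI were 3.35% of Six6 cells, 2.53% of Wnt8b cells and 3.88% of unmarked cells of day 6, against 26.4% of Dppa5a cells. Cells with both were 20.8% of Six6 cells, 28.4% of Wnt8b cells and 23.5% of unmarked cells, against 7.30% of Dppa5a cells. On day 4, 11.98% of Fgf5 cells and 30.3% of Dppa5a cells had Sox2 alone, and 29.2% and 14.7% had both. In Sox10 cells 84.1% had a SoxC UMI without Sox2. Among the 65 endoderm-marked cells of day 6 with under 5 Dppa5a UMIs, 1.54% (0.0389% to 8.28%) had Sox2 alone, 0% had both and 27.7% had a SoxC UMI alone, so the shares of Six6, Wnt8b and unmarked cells with Sox2 alone lay within the interval of this reference.

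Within the Six6 group the partners were found about as often with a Sox2 UMI as without. Sox11 was found in 78.2% (74.2% to 81.8%) of Six6 cells with Sox2 and in 76.9% (74.7% to 79.0%) of those without. Sox3 was found in 10.3% of Six6 cells with Sox2 and in 10.5% of those without, and Sox21 in 7.77% and 7.75%. In unmarked cells, which are mixtures, the shares were higher beside Sox2. On day 6 Sox4 was found in 45.4% (42.2% to 48.5%) of unmarked cells with Sox2 and in 38.6% (36.8% to 40.5%) of those without, and Sox21 in 14.6% (12.4% to 16.9%) and 10.7% (9.56% to 11.98%). Among unmarked cells of day 4, Sox11 was found in 54.8% (51.8% to 57.7%) of cells with Sox2 and in 46.8% (44.4% to 49.1%) of those without. These are shares of cells with a UMI at 5000 UMIs, and a cell with no UMI may still hold the RNA.

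Companions of the SOX genes were read from lists of related genes. Of 7 POU genes, which include the DNA-binding partners of SOX proteins, 3 reached a mean of 10 CPM and 2 of them were lower on day 6, where 6.28% of all genes were. Pou5f1, the pluripotency partner of Sox2, had 27.2 CPM in day 6 cells, against 328 CPM in day 4 cells (ratio 0.0831), and Pou3f1, of formative and neural cells, had 7.14 and 49.1 CPM (ratio 0.145). Pou2f1 had a ratio of 1.23. The 4 POU genes below that level were each higher on day 6, namely Pou3f2 (7.49-fold), Pou3f4 (5.46-fold), Pou3f3 (4.12-fold) and Pou4f1 (2.82-fold), at 0.251 to 2.54 CPM on day 6 and 0.0608 to 0.902 CPM on day 4. Of 14 neural progenitor genes 10 reached the level and 7 were higher, none lower, with a median log2 ratio of 1.13 against 0.14 over all genes, of which 13.3% were higher. Of the 4 below it 1 was higher and 2 were lower, Fabp7 at 0.311 (3.66 CPM in day 6 cells, against 11.8 CPM in day 4 cells) and Zic2 at 0.344. The higher genes included Pax6 (53.5-fold), a regulator of eye formation, Hes5 (9.20-fold), a Notch target, Cdh2 (6.37-fold), a neural cadherin, and Gli3 (3.55-fold), a Hedgehog effector.

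Pou5f1 also differed between marker groups. Its level was 216 CPM in Dppa5a cells of day 6, against 1.65 CPM in Six6 cells of that day. On day 4 it was 353 CPM in Fgf5 cells and 312 CPM in Dppa5a cells. Among these groups those with the higher Sox2 levels were thus those with Pou5f1, and Six6 cells had Sox2 with next to no Pou5f1. Sox2 also stood at 80.6 CPM in Wnt8b cells of day 6. It had 104.8 CPM (88.8 to 122.7) in day 6 cells with 2 or more UMIs of Wnt1, a midbrain gene. Pou5f1 had 5.39 CPM over all day 6 cells with under 5 Dppa5a UMIs. Its levels in the Wnt8b and Wnt1 cells themselves are not given here. Whether a high Sox2 level was particular to Pou5f1 groups was not tested.

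Among 13 other SOX genes, 3 were measured in the day comparison, of which Sox13 was lower (ratio 0.602) and none higher. Sox9, a gene of glia, retina and crest, had a ratio of 1.31, and Sox12, the last SoxC gene, had 23.3 CPM in day 6 cells, against 23.1 CPM in day 4 cells. Sox15 followed the Dppa5a groups, with 16.9 CPM in that of day 6 and 7.36 CPM in that of day 4, against 0.184 CPM in Six6 cells.

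Neurons could not be separated well. Of 12 neuron genes 2 were measured, Stmn2, which was lower on day 6 (ratio 0.290), and Tubb3 (0.714), while Dcx stayed at 0.080 CPM in day 6 cells, against 0.172 CPM in day 4 cells. With a limit of 3 summed UMIs of the list, 11.7% of day 6 cells and 43.4% of day 4 cells passed, so the list does not mark neurons in these libraries. None of the 6 SOX genes passed the limit between such cells and the others of day 6, against 1.45% higher and 0.635% lower of 6776 genes. Sox2 had the ratio farthest from 1, at 1.25, and Sox11 had 0.960.

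Over the 7 day and marker groups of 50 or more cells that were not mixed or widened, Sox3 and Sox11 varied together (Pearson r = 0.97), as did Sox4 and Sox11 (0.96), while Sox2 ran against Sox3 (-0.84) and Sox21 (-0.88). These are descriptions over 7 groups from 2 libraries. The genes most like each member by the same measure, out of 6626, were Mogat2, Sox9 and Epha7 for Sox1, Irf2bpl, Mrpl33 and AW549877 for Sox2, and Naca, Tenm3 and Skp2 for Sox3. For Sox4 they were Tstd3, Clns1a and Ttc9c, for Sox11 Fstl1, Nudt5 and Nbea, and for Sox21 Snhg20, Alkbh3 and Nr2f2, all with r above 0.97.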

How the data were processed

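Libraries of 1 sample per day were made with the 10x Genomics single cell 3' v2 kit, and Cell Ranger 2.0.1, Seurat 2.3.4 and the mm10 build are named in the processing notes of the submitters. The authors deposited unnormalized UMI counts per gene and barcode. The barcodes given were fewer than the cells the study states for either day. The filter it states was applied, which keeps barcodes of 500 to 26000 UMIs and 500 to 5000 genes, with no more than 10% of counts from mitochondrial and 0.5% from haemoglobin genes and with 20% or more from genes of ribosomal proteins. No doublet caller was run. Doublets were treated only by the upper limits, with the 5% of cells with the most UMIs left out as an alternative.

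Counts were summed over cells to CPM with Python 3.11.15, numpy 2.4.6, scipy 1.17.1 and pandas 2.3.3, and sequences were read with Biopython 1.88. Intervals are exact at 95% (Poisson for levels, conditional binomial for ratios, Clopper-Pearson for shares) and cover counting error only. The scripts were tested on simulated data. Ratios were computed over all genes and listed at a mean of 10 CPM or more over the groups compared. Named genes were all 6 members and, from the companion lists, up to 4 measured genes a list with the largest absolute log2 day ratio, the 3 genes most like each member in log2(CPM + 1) over the marker groups, and the grouping markers. Some items are not reported here. The members and lists were chosen with earlier results of these data known. Alternatives changed the cell filter, the totals, the scaling, the depth, the group limits and the treatment of mixed cells.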

Additional observations from a re-analysis of the deposited data

Results flagged for a closer look

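For Sox4 and Sox21 the same contrast pointed opposite ways in 2 cell sets or on both days, with each interval leaving out 1. None of these differences was tested, since each rests on 1 library a day. The day 6 over day 4 ratio of Sox4 was 0.661 (0.570 to 0.764) in the Dppa5a group and 1.30 (1.26 to 1.34) in cells with under 5 Dppa5a UMIs. Sox4 in Six6 cells over unmarked cells was 0.916 on day 6 and 1.58 (1.07 to 2.25) on day 4, where 20 cells made up the Six6 group. Sox4 in Fgf5 cells over unmarked cells was 0.584 (0.388 to 0.845) on day 6, where 29 cells made up the Fgf5 group, and 1.14 on day 4.

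Sox21 in Six6 cells over unmarked cells was 0.662 on day 6 and 21.6 (12.1 to 36.4) on day 4. The 20 Six6 cells of day 4 held 17 Sox21 UMIs in 11 cells, at most 3 in a cell, so the value did not come from 1 cell. By the number of Six6 UMIs on day 4, Sox21 had 1.87 CPM in cells with 0, 6.80 CPM with 1, 28.7 CPM with 2, 82.6 CPM with 3 and 74.1 CPM with 4 or more, the last 3 classes from 11, 6 and 10 cells.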

How the results depend on the processing

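Of the ratios recomputed, 430 kept their call, 7 passed the limit only under an alternative and 7 no longer passed it. The cause was not tested. Where either setting gave a call, 0 reversed. Ratios inside the limit in both settings could change side. Between days, Sox11 in the Dppa5a group had a log2 ratio of 0.053, and of -0.039 when centred on the median gene. The Sox1 day ratio in cells with under 5 Dppa5a UMIs (1.49) was 1.53 over all deposited barcodes and 1.55 after thinning. The Sox4 day ratio in the Dppa5a group (0.661) was 0.699 over all barcodes and 0.688 without the 5% of cells with the most UMIs. Sox21 in Fgf5 over Dppa5a cells (0.632) was called lower with totals without mitochondrial and ribosomal protein genes (0.582), centred on the median gene (0.542), and at group limits of 1 UMI (0.552) and 3 UMIs (0.508). Sox21 in Six6 over unmarked cells of day 6 (0.662) was no longer called as a mean over cells (0.672), at limits of 1 UMI (0.716) and 3 UMIs (0.668), or in cells of 8000 to 16000 UMIs (0.694). Sox1 in Sox10 over Six6 cells was 0 at the 1 UMI limit, from 0 UMIs, and Sox4 in Fgf5 over Dppa5a cells (1.88) was 1.43 with mixed cells kept. Of the class shares, 49 moved by less than their intervals and 14 by more. At the 1 UMI limit Sox2 was 92.9% and Sox3 4.99% of SoxB1 UMIs in day 6 Dppa5a cells, 95.4% and 3.18% in day 4 Dppa5a cells, and Sox4 was 33.7% of SoxC UMIs in Fgf5 and 47.5% in Dppa5a cells of day 4. At the 3 UMI limit Sox4 was 36.5% in Fgf5 cells, and Sox2 was 97.6% and Sox3 1.69% in day 4 Dppa5a cells. In cells of 8000 to 16000 UMIs Sox4 was 26.0% in unmarked cells of day 6 and 31.4% in those of day 4, Sox2 was 97.6% and Sox3 2.07% in day 6 Dppa5a cells, and Sox3 was 6.18% in Fgf5 cells. Over all genes, 889 were higher and 421 lower on day 6, against 180 and 112 where the mean had to reach 50 CPM and 3272 and 2429 with no filter on level. Ratios of Sox10 cells at the 3 UMI limit and at 8000 to 16000 UMIs were not run, since under 50 cells were left. No paired analysis was possible because each day has 1 library. For the same reason no replicate could be left out. Sox1 had 1 to 18 UMIs in the Dppa5a and Sox10 groups, which limits those ratios.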

Other observations

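Several SOX genes outside the 6 stayed under a mean of 10 CPM and are given as values. Sox6 and Sox5, genes of the SoxD class, had 9.40 and 6.82 CPM in day 6 cells, against 0.304 and 0.355 CPM in day 4 cells. Sox17, an endoderm gene, had 4.48 CPM in day 6 cells, against 1.37 CPM in day 4 cells, and 183 CPM in the endoderm-list cells of day 6, a list it belongs to.

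Markers of other forebrain and midbrain territories, chosen after the data were seen and counted at 2 or more UMIs per cell with no exclusive groups, gave further levels of the SOX genes on day 6. The 823 cells with Fezf2, a gene of the anterior forebrain, had 14.7 CPM of Sox1 and 35.1 CPM of Sox21. The 98 cells with Wnt1, a gene of the midbrain and dorsal midline, had 104.8 CPM of Sox2 and 15.7 CPM of Sox3. In the 2086 cells with Rax, Sox1 had 6.18 CPM, Sox2 63.1 CPM and Sox3 25.5 CPM, close to the values of the Six6 group.

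On day 4, when neural markers were sparse, the 82 cells with Lhx2, an eye field gene, had 23.2 CPM of Sox21 and 243.9 CPM of Sox11. The 104 cells with Fezf2 had 13.1 CPM of Sox21 and 145.7 CPM of Sox2, and the 325 cells with Hes5 had 7.62 CPM of Sox21 and 9.86 CPM of Sox1. Over all day 4 cells the level of Sox21 was 2.12 CPM. These sets overlap each other, and no comparison between them was made.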
